A study of Mus musculus with 6 samples.

Results

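Transcripts of smooth muscle and of blood and lymph vessels were examined in the epithelial fraction washed from the mouse colon. The genes were fixed by name: 36 in all, of which 15 are smooth muscle genes and 21 are vessel genes, the pericyte gene Rgs5 being counted with the vessels. All 36 had an entry among the 46078 genes counted, and 18 of them also had a row in the authors' deposited comparison table of 15138 genes. Each of the 6 libraries came from the colon of mice 2 months of age kept without treatment, 3 from wild type and 3 from Lingo3-/- mice, which lack a transmembrane protein with leucine-rich repeats. The fraction was a chemical wash, with no sort or gate, and the labels state neither the strain, nor the sex, nor how the Lingo3 allele was made. Nothing in the labels says that the libraries came from separate animals, so p-values measure the spread between these libraries, which may be technical. Values for single libraries are always listed in the order of replicates 1, 2 and 3.

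Smooth muscle shortens when myosin, switched on by phosphorylation of its regulatory light chain, pulls on actin filaments decorated with tropomyosin, caldesmon and calponin. In the colon it forms the outer muscle coat, the thin muscularis mucosae below the crypts and the walls of vessels. Endothelial cells line the capillaries under the epithelium and are recognised by receptors for vascular endothelial growth factor (VEGF) and angiopoietin, by vascular cadherin and by transcription factors of the ETS and SOX families. Neither cell type belongs to the epithelium, while several proteins of the muscle list also serve the cytoskeleton of epithelial and immune cells.

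Gene counts per library ran from 25010618 to 28029583 in wild type and from 11868000 to 17200931 in knockout, without overlap. Mitochondrial genes took 45.3 to 48.4% of these counts in wild type and 34.7 to 36.3% in knockout, also without overlap. The part of that share in the muscle and vessel values was not tested. A count of 3, taken as the floor of measurement, corresponded to 0.113 to 0.240 CPM (the gene count scaled to the size of its library, here with TMM factors), and this floor covers counting error only. The targeted gene Lingo3 had at most 3 counts in any library and does not check the labels. With edgeR's quasi-likelihood test and Benjamini-Hochberg adjustment over 16856 genes, 1589 were higher and 1007 lower in knockout. Upper-quartile factors gave 1137 higher and 1365 lower, and library totals without composition factors gave 5415 and 420. The second scaling moved the median log2 fold change over the genes tested from -0.03 to 0.26. The label of wild type replicate 1 names EDTA with DTT as the wash and the other 5 name EDTA, so values without that library are given for each named gene of the muscle, vessel and pathway lists whose call they change.

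Several transcripts that define smooth muscle or endothelium were near or below the floor in both genotypes, while others, such as Acta2, Myh11, Kdr and Pecam1, were above it in every library. Lmod1, which encodes the smooth muscle actin nucleator leiomodin 1, had 0 counts in all 6 libraries. The enteric smooth muscle actin gene Actg2 had 2, 4 and 2 counts in wild type and 1, 3 and 2 in knockout. On the vessel side Sox17, Sox18, Emcn, Erg, Rgs5, Flt1, Cldn5, Cdh5, Robo4 and Tie1 had at most 10 counts in every library. Of the 36 genes, 21 passed the filter on low counts (a count of about 10 in at least 3 libraries) and were tested, 12 muscle and 9 vessel genes. The filter can keep a low gene through its higher group, so counts over the tested genes describe these and not the whole list.

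Per kilobase of exon the contractile isoforms stood far below their non-muscle relatives. The unit here is CPM per kb over the merged exons of GENCODE M21, as the mean of the 6 libraries, and these are levels. Among actins, Acta2 (aortic smooth muscle alpha actin) stood at 0.587 and Actg2 at 0.0751, against 766 for the cytoplasmic beta actin gene Actb and 121 for the gamma actin gene Actg1. Actin coding sequences are very alike and reads with more than 1 alignment went to a summary line of the count table and to no gene, so levels of the actins are uncertain. The smooth muscle myosin heavy chain gene Myh11 stood at 0.127, against 49.5 for its non-muscle relative Myh9. It made 0.146 to 0.523% of the summed level of Myh11, Myh9 and Myh10 in the 6 libraries. The light chain gene Myl9 stood at 0.304, beside 18.9 for Myl12a and 68.8 for Myl12b, which encode the forms used in non-muscle cells. Tropomyosins differed from this pattern. Tpm1 stood at 23.4, beside Tpm3 at 21.7 and Tpm4 at 28.9, and Tpm2 at 3.34.

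**Figure D1:**
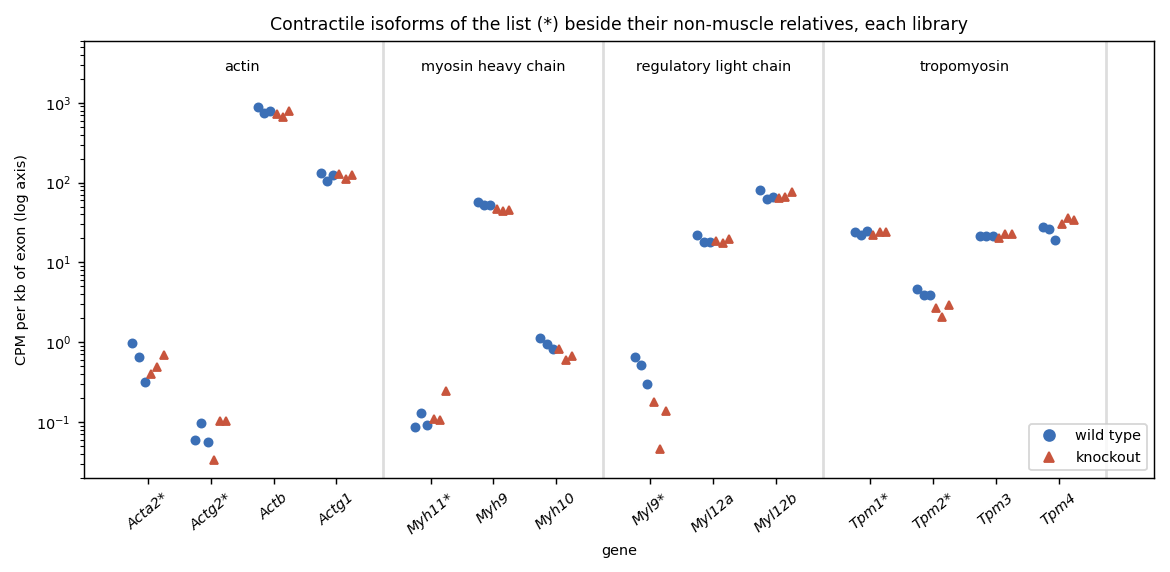
CPM per kb of exon (log axis) for the actin, myosin heavy chain, regulatory light chain and tropomyosin genes, with 1 point per library, circles for wild type and triangles for knockout; genes of the muscle list carry an asterisk. Acta2, Actg2, Myh11 and Myl9 lie below 1 in every library, whereas Tpm1 lies beside Tpm3 and Tpm4 at about 20 and above.

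In the muscle list 4 of 12 tested genes fell in knockout, Tpm2, Mylk, Flna and Des, and 0 rose. Over all genes tested 5.97% were lower and 9.43% higher by the same rule. The median log2 fold change was -0.47 over the 12 genes and -0.03 over all genes tested, a description and not a test of the list. Summed over the 15 genes, the level was 356, 350 and 318 CPM in wild type and 281, 260 and 274 CPM in knockout. Most of this sum came from Tpm1, Flna and Mylk, which are also made outside muscle. Their means were 153, 84.2 and 43.5 CPM in wild type and 151, 45.6 and 32.7 CPM in knockout. In bulk RNA, fewer cells of a type and less RNA per cell cannot be told apart. The count of falls was 2 when wild type replicate 1 was left out, and 1 when wild type replicate 2, knockout replicate 2 or knockout replicate 3 was. With library totals alone it was 0, and Tpm1 then rose. With no filter on low counts it was 6 (Myl9 and Synpo2 in addition), where 5.75% of 29129 genes were lower. With DESeq2 it was 4 (Tpm2, Mylk, Flna and Cald1), where 7.1% of 14346 genes were lower, and Des had no adjusted p there.

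**Figure D2:**
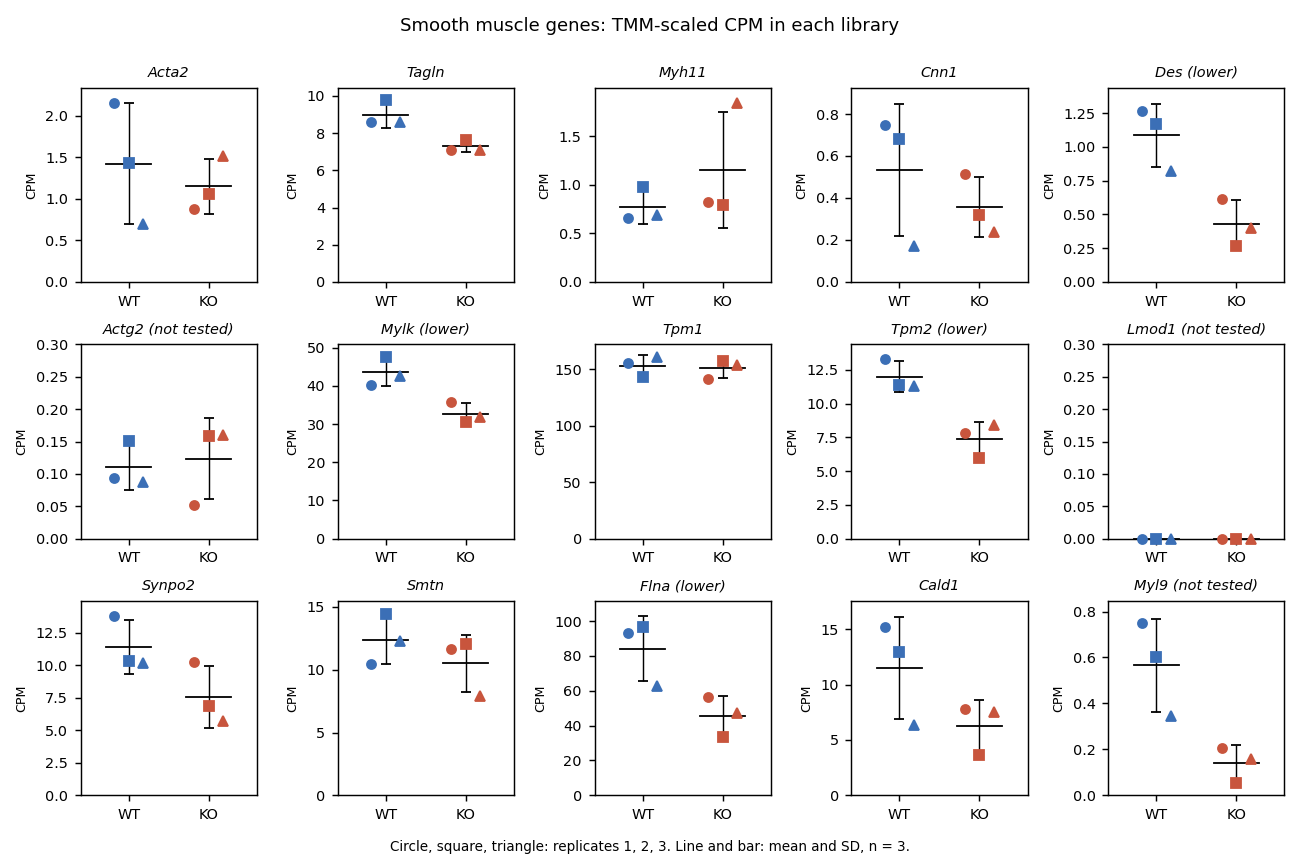
TMM-scaled CPM (linear axes from 0) of the 15 muscle genes in each library, with points for replicates 1, 2 and 3 and lines and bars for the mean and SD of 3 libraries per genotype. The knockout points lie below every wild type point for Tagln, Des, Mylk, Tpm2, Flna and Myl9, while Tpm1, the most abundant, overlaps.

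The tropomyosin genes Tpm1 and Tpm2 diverged. Tpm2, on chromosome 4 from 43514711 to 43523765 (GRCm38, minus strand), encodes beta tropomyosin, typical of muscle thin filaments. Its level was 13.3, 11.3 and 11.3 CPM in wild type and 7.83, 5.99 and 8.40 CPM in knockout. All knockout libraries were below all wild type libraries. The mean went from 11.998 ± 1.15 to 7.41 ± 1.26 (SD, n = 3). The log2 fold change was -0.70 ± 0.15 (SE) and the adjusted p = 0.0113. The fall was called without any 1 of the 6 libraries (adjusted p of 0.0195 to 0.0448) and missed the threshold with library totals alone (adjusted p = 0.0510). Tpm1 encodes alpha tropomyosin, made in muscle and in many other cells. It stood at 153 ± 9.47 CPM in wild type and 151 ± 8.23 in knockout (SD, n = 3; log2 fold change -0.02 ± 0.10, adjusted p = 0.902). Its estimate turned to 0.26 with library totals alone (adjusted p = 0.0473), a scaling that shifts all genes upward. Tpm4, a tropomyosin of non-muscle cells, rose by 0.46 (adjusted p = 0.0466), from 41.7 to 60.8 CPM in wild type to 66.7 to 78.7 CPM in knockout. Of the tropomyosins measured, Tpm2 was thus lower, Tpm4 higher, and Tpm1 and Tpm3 (0.03) did not pass.

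Other thin filament genes did not pass the test. Acta2 had 2.15, 1.43 and 0.694 CPM in wild type and 0.875, 1.06 and 1.52 CPM in knockout. These values overlapped throughout, and the highest and the lowest both came from wild type (log2 fold change -0.33 ± 0.40, adjusted p = 0.604). The estimate turned to 0.085 without wild type replicate 1. Tagln encodes transgelin, an actin-binding protein of early smooth muscle. It had 8.60, 9.80 and 8.59 CPM in wild type and 7.11, 7.64 and 7.12 CPM in knockout, groups that did not overlap, with log2 fold change -0.30 ± 0.14 and adjusted p = 0.152. Cnn1 encodes calponin 1, which slows the actomyosin motor. It had 16, 18 and 4 counts in wild type and 10, 6 and 3 in knockout, with log2 fold change -0.52 and adjusted p = 0.549.

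Caldesmon, the product of Cald1, ties actin to myosin and also occurs in fibroblasts and other cells. Cald1 had 15.2, 12.97 and 6.38 CPM in wild type and 7.78, 3.61 and 7.52 CPM in knockout. Wild type replicate 3 lay among the knockout libraries, and the gene did not pass (log2 fold change -0.88 ± 0.42, adjusted p = 0.220). Without wild type replicate 3 it passed (-1.15, adjusted p = 0.0405). The summed level of 12 fibroblast markers had the same order in wild type, with 1315, 1200 and 442 CPM, beside 599, 295 and 515 CPM in knockout. Their part in the result was not tested. Smtn, the gene of smoothelin, had 10.5, 14.4 and 12.3 CPM in wild type and 11.6, 12.04 and 7.92 CPM in knockout. Its groups overlapped (log2 fold change -0.22 ± 0.17, adjusted p = 0.403). With library totals alone its log2 fold change was 0.059, with adjusted p = 0.855. Exons of Smtn and Tagln overlap other genes on the opposite strand, and since the strand setting of the counting is not given, reads of such partners cannot be told apart.

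Of the motor genes, the kinase gene fell while the heavy chain did not pass. Mylk, on chromosome 16 from 34745210 to 35002420, encodes myosin light chain kinase, which in epithelium also acts on the ring of actomyosin at the tight junctions. It had 40.4, 47.5 and 42.7 CPM in wild type and 35.8, 30.7 and 31.8 CPM in knockout, so the groups did not overlap. The fold change on the log2 scale was -0.41 ± 0.10 (adjusted p = 0.0204), a knockout level of 75.3% of wild type. It was -0.13 with library totals alone (adjusted p = 0.448). The call was lost without wild type replicate 2 (adjusted p = 0.100), knockout replicate 2 (0.0892) or knockout replicate 3 (0.0804). Mylk shares exon sequence with antisense transcripts. Myh11, the heavy chain of the smooth muscle motor, had 14, 26 and 16 counts in wild type and 16, 15 and 23 in knockout, or 0.655 to 0.980 and 0.796 to 1.84 CPM. The groups overlapped and the log2 fold change was 0.49 ± 0.39 (adjusted p = 0.415).

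Myl9, the gene of the smooth muscle regulatory light chain, had 16, 16 and 8 counts in wild type and 4, 1 and 2 in knockout. It did not pass the filter. In the fit without a filter its log2 fold change was -1.98 with adjusted p = 0.0160, at 0.566 ± 0.203 and 0.140 ± 0.0785 CPM (SD, n = 3), where the knockout mean lay below the floor of those libraries. The promoter of Myl9 is shown because it was the sole window of the list with an exact CArG box, the textbook binding site of serum response factor (SRF), which drives contractile genes with myocardin. The window from RefSeq (GRCm38.p6, chr2:156775214-156775513, plus strand) covers 250 bases before and 50 after the start of the gene, with the box in capitals at bases 90 to 99 counted from its 5′ end.

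Myl9 promoter: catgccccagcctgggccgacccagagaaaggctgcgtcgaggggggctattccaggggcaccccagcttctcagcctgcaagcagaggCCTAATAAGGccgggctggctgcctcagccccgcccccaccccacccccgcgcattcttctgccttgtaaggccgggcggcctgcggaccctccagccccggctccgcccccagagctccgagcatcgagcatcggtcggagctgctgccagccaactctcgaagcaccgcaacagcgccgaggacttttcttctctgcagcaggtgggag

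The box is its own reverse complement in form, so that a search of 1 strand covers both. It was found in 1 of 13 windows of the 12 muscle genes with a RefSeq promoter, in 0 of 18 windows of 13 vessel genes and in 1.63% of 32851 windows of all genes. Windows without an exact match say nothing about SRF, and boxes with 1 changed base, or outside the window, were not searched.

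Genes that anchor and cross-link the contractile filaments gave 2 further falls, in Flna and Des. Flna, on chromosome X from 74223461 to 74249820, encodes filamin A, a cross-linker of actin in most cell types. Its level was 93.3, 96.4 and 63.0 CPM in wild type and 56.1, 33.7 and 46.9 CPM in knockout. The lowest wild type library was above the highest knockout library, by a small margin. The mean went from 84.2 ± 18.5 to 45.6 ± 11.3 (SD, n = 3). The log2 fold change was -0.89 ± 0.23 (SE) and the adjusted p = 0.0447. The call was lost with library totals alone (adjusted p = 0.0827) and without wild type replicate 1 (0.128), wild type replicate 2 (0.122), knockout replicate 2 (0.0516) or knockout replicate 3 (0.126).

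Des, on chromosome 1 from 75360329 to 75368579, encodes desmin, the intermediate filament protein of muscle. It had 27, 31 and 19 counts in wild type and 12, 5 and 5 in knockout. The means were 1.09 ± 0.231 and 0.428 ± 0.178 CPM (SD, n = 3). The log2 fold change was -1.32 ± 0.39 (SE), with adjusted p = 0.0415. The groups did not overlap, and the knockout libraries stood close to the floor. Des also shares exon sequence with an antisense gene, whose reads cannot be told apart from its own. The call was lost with library totals alone (adjusted p = 0.0649) and without wild type replicate 1 (0.103), wild type replicate 2 (0.120), knockout replicate 2 (0.156) or knockout replicate 3 (0.115). Des had no adjusted p with DESeq2, with a mean CPM from 1 upward or with counts thinned to the smallest total. Synpo2 encodes synaptopodin 2, an actin-bundling protein of muscle. It had 13.8, 10.3 and 10.1 CPM in wild type and 10.2, 6.84 and 5.68 CPM in knockout and did not pass (log2 fold change -0.57 ± 0.21, adjusted p = 0.0976). Knockout replicate 1 reached the wild type range, and without it the gene passed (-0.85, adjusted p = 0.0149). With no filter on low counts it also passed (adjusted p = 0.00504), at a near equal estimate with a smaller SE (-0.56 ± 0.16). Of the genes whose product is largely confined to muscle (Acta2, Actg2, Myh11, Cnn1, Des and Lmod1, a choice made with the values known), Des was the 1 that fell. Their summed level was 4.91, 4.41 and 2.47 CPM in wild type and 2.88, 2.60 and 4.16 CPM in knockout, with overlap. Actg2 and Lmod1 of this choice were not tested, and Myl9, Tagln and Synpo2 are outside it. The log2 fold changes of Myl9, Tagln and Synpo2 were -1.98 (fit without a filter), -0.30 and -0.57. The sum therefore does not stand for every gene of muscle.

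In the vessel list 2 of 9 tested genes fell in knockout, Kdr and Pecam1, and 0 rose, beside 5.97% of all genes tested called lower. The other 12 genes were too low to test and together had 53, 69 and 50 counts in wild type and 40, 22 and 20 in knockout. In CPM these 12 summed to 2.48, 2.60 and 2.17 in wild type and 2.06, 1.17 and 1.60 in knockout. Over the 21 genes the level was 37.8, 35.1 and 25.2 CPM in wild type and 24.5, 21.2 and 20.7 CPM in knockout. Esam and Pecam1 had the highest means of these genes in both genotypes. The count of 2 falls became 4 with no filter on low counts, Esam and Flt4 being added. That fit covered all 21 vessel genes, and 5.75% of its 29129 genes were lower.

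**Figure D3:**
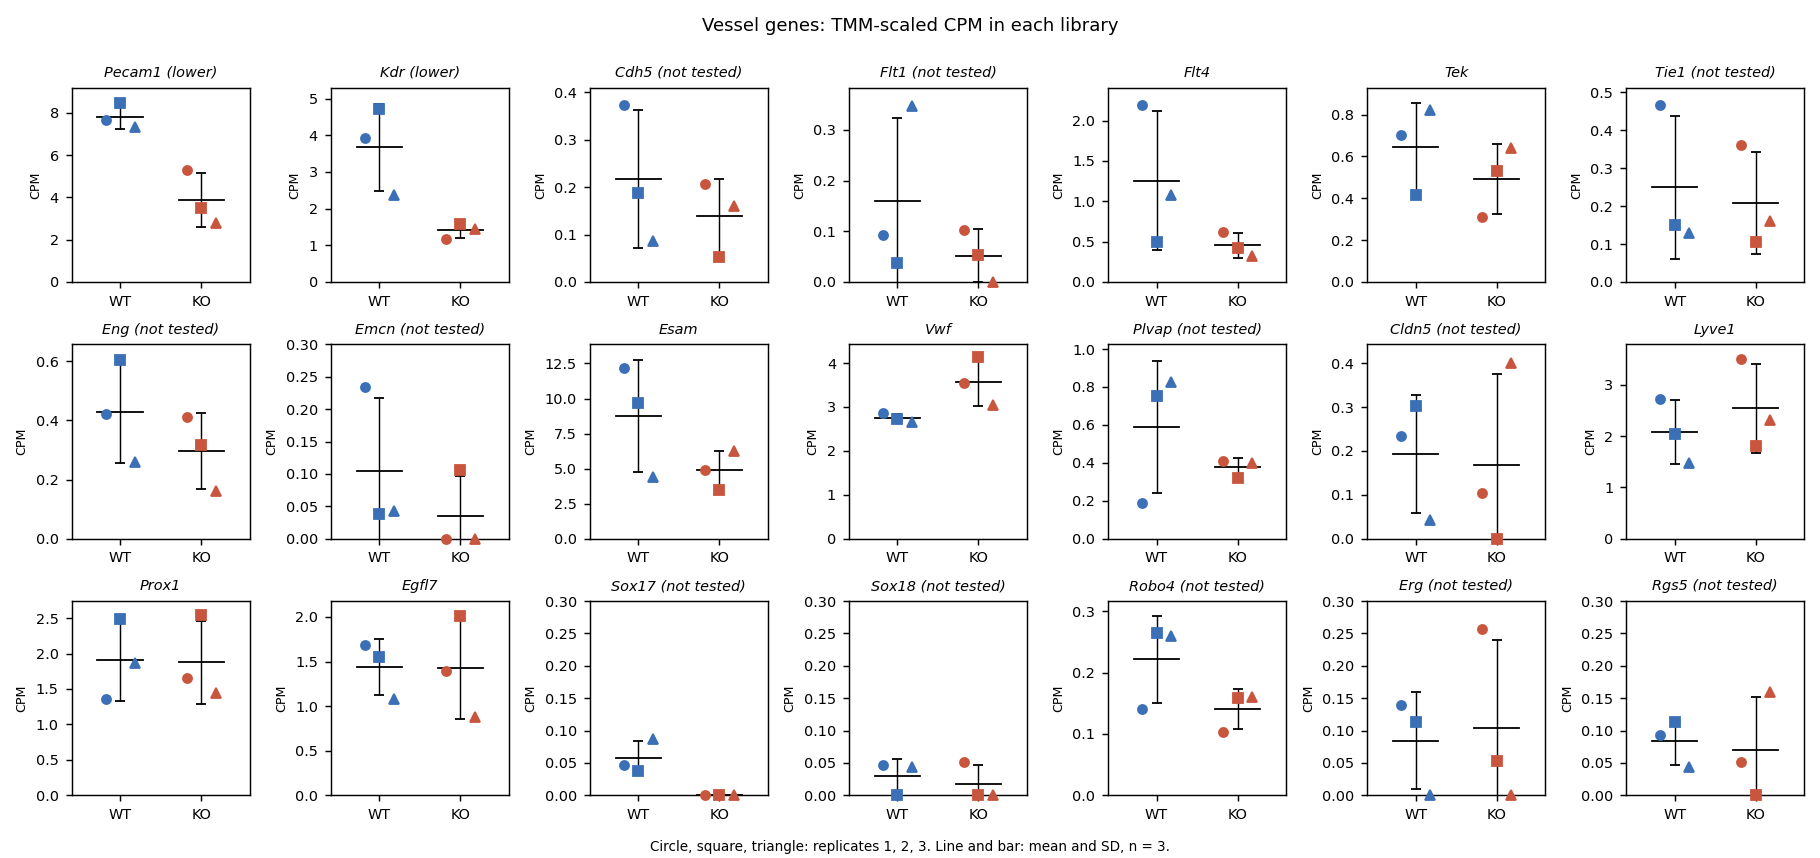
TMM-scaled CPM (linear axes from 0) of the 21 vessel genes in each library, with points for replicates 1, 2 and 3 and lines and bars for the mean and SD of 3 libraries per genotype. Pecam1 and Kdr are lower in all 3 knockout libraries, Vwf is higher in all 3, and 12 genes were too low to be tested.

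Among the receptors Kdr fell. Kdr, on chromosome 5 from 75932827 to 75978458, encodes VEGF receptor 2, the main signalling receptor of endothelial growth. Its level was 3.93, 4.71 and 2.39 CPM in wild type and 1.18, 1.59 and 1.44 CPM in knockout. Every knockout library was below every wild type library, and wild type replicate 3 was the nearest to them. The mean went from 3.68 ± 1.18 to 1.41 ± 0.206 (SD, n = 3). The log2 fold change was -1.39 ± 0.29 (SE) and the adjusted p = 0.00924. The call was kept under all 16 alternatives, with adjusted p between 1.57e-05 and 0.0445. Flt1, the gene of VEGF receptor 1, had 2, 1 and 8 counts in wild type and 2, 1 and 0 in knockout, too few to test. Flt4, the gene of VEGF receptor 3 of lymphatic vessels, had 47, 13 and 25 counts in wild type and 12, 8 and 4 in knockout. It did not pass (log2 fold change -1.39 ± 0.56, adjusted p = 0.119), wild type replicate 2 lying in the knockout range. Without that library Flt4 passed (-1.77, adjusted p = 0.0305), as it did with no filter on low counts (0.00983). The fit without a filter gave Flt4 a near equal estimate with a smaller SE (-1.38 ± 0.41).

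The angiopoietin receptor gene Tek had 15, 11 and 19 counts in wild type and 6, 10 and 8 in knockout. On the CPM scale the groups overlapped (log2 fold change -0.42 ± 0.43, adjusted p = 0.540). Its partner Tie1 had 10, 4 and 3 counts in wild type and 7, 2 and 2 in knockout. Eng, the gene of the TGF-beta co-receptor endoglin, had 9, 16 and 6 against 8, 6 and 2, and the guidance receptor gene Robo4 had 3, 7 and 6 against 2, 3 and 2. These counts do not allow a difference to be detected.

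The promoter of Kdr is printed because it belongs to the vessel gene with the largest fall that passed, and because ETS factors, which read the core letters GGAA, are textbook regulators of endothelial genes. The RefSeq window (GRCm38.p6, chr5:75978406-75978705, minus strand, printed in the direction of the gene) holds those letters 5 times over both strands, written in capitals as GGAA or TTCC.

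Kdr promoter: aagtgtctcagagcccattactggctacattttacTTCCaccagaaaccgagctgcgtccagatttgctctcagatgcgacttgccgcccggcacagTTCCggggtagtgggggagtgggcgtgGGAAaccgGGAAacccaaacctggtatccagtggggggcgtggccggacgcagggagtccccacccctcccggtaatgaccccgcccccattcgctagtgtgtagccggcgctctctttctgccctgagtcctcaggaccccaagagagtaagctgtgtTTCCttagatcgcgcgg

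These 4 letters are common: 17 of 18 vessel windows, 13 of 13 muscle windows and 96.0% of all 32851 windows hold them on either strand, so their presence in Kdr sets it apart from nothing.

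Among the genes of junctions and the cell surface Pecam1 fell. Pecam1, on chromosome 11 from 106654217 to 106750628, encodes the adhesion molecule CD31 of endothelial junctions, which leukocytes and platelets also carry. It had 7.67, 8.45 and 7.33 CPM in wild type and 5.30, 3.50 and 2.80 CPM in knockout, with no overlap. The mean went from 7.81 ± 0.572 to 3.87 ± 1.29 (SD, n = 3). The log2 fold change was -0.99 ± 0.21 (SE) and the adjusted p = 0.0104. This call too was kept under all 16 alternatives (adjusted p of 1.29e-05 to 0.0485). In the same libraries 8 T cell markers summed to 246, 292 and 276 CPM in wild type and 170, 107 and 151 CPM in knockout. Of these 8 markers 6 fell, beside 5.97% of all genes tested, and the pan-leukocyte gene Ptprc (log2 fold change -0.86) was among them. Their part in the fall of Pecam1 was not tested.

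Esam encodes an adhesion molecule of endothelial tight junctions and platelets. It had 12.2, 9.65 and 4.38 CPM in wild type and 4.89, 3.50 and 6.24 CPM in knockout. Wild type replicate 3 lay within the knockout range, and the gene did not pass (log2 fold change -0.86 ± 0.40, adjusted p = 0.195). It passed without wild type replicate 3 (-1.17, adjusted p = 0.0109), with DESeq2 (0.0422) and with no filter on low counts (0.00429). The fit without a filter gave Esam a near equal estimate with a smaller SE (-0.85 ± 0.22), from the same overlapping libraries. The order of wild type replicates 1, 2 and 3 in Esam was that of Cald1 and of the fibroblast markers given above. Cdh5, the gene of vascular cadherin and a defining endothelial transcript, had 8, 5 and 2 counts in wild type and 4, 1 and 2 in knockout. Plvap, the gene of the diaphragm protein of fenestrated capillaries, had 4, 20 and 19 counts against 8, 6 and 5, and the claudin gene Cldn5 had 5, 8 and 1 against 2, 0 and 5. Emcn, the gene of endomucin of veins and capillaries, had 5, 1 and 1 against 0, 2 and 0.

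Of the secreted genes and the lymphatic genes Lyve1 and Prox1, 0 passed the test. Vwf, the gene of von Willebrand factor, had 2.85, 2.71 and 2.65 CPM in wild type and 3.55, 4.14 and 3.04 CPM in knockout. All knockout values were above all wild type values, as for 19.7% of all genes tested, and the log2 fold change was 0.40 ± 0.20 (adjusted p = 0.207). With library totals alone it was 0.68 (adjusted p = 0.0306). Egfl7, a secreted endothelial gene whose exons overlap Agpat2 and the microRNA gene Mir126a, had 1.44 ± 0.314 and 1.43 ± 0.569 CPM (SD, n = 3; log2 fold change 0.03 ± 0.33, adjusted p = 0.966). Lyve1 encodes a hyaluronan receptor of lymphatic endothelium and of some macrophages. It had 2.71, 2.04 and 1.47 CPM in wild type and 3.50, 1.80 and 2.32 CPM in knockout, where the groups overlapped (0.30 ± 0.31, adjusted p = 0.527). Knockout replicate 1, its highest library, also had the highest summed level of 8 macrophage markers, 207 CPM beside 41.1 and 109 CPM in the other knockout libraries and 67.2 to 85.5 CPM in wild type. The part of these cells was not tested.

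Prox1, the transcription factor of lymphatic identity that gut endocrine cells also make, had 1.36, 2.49 and 1.86 CPM in wild type and 1.65, 2.55 and 1.44 CPM in knockout. Its log2 fold change was -0.01 ± 0.31 (adjusted p = 0.985), which allows changes in either direction, and its exons overlap the antisense gene Prox1os. The endothelial transcription factor genes were at the edge of detection. Erg had 3, 3 and 0 counts in wild type and 5, 1 and 0 in knockout, Sox17 had 1, 1 and 2 against 0, 0 and 0, and Sox18 had 1, 0 and 1 against 1, 0 and 0. The pericyte gene Rgs5 had 2, 3 and 1 against 1, 0 and 2. No fold is given for these genes because both genotypes were at or near the floor.

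**Figure D4:**
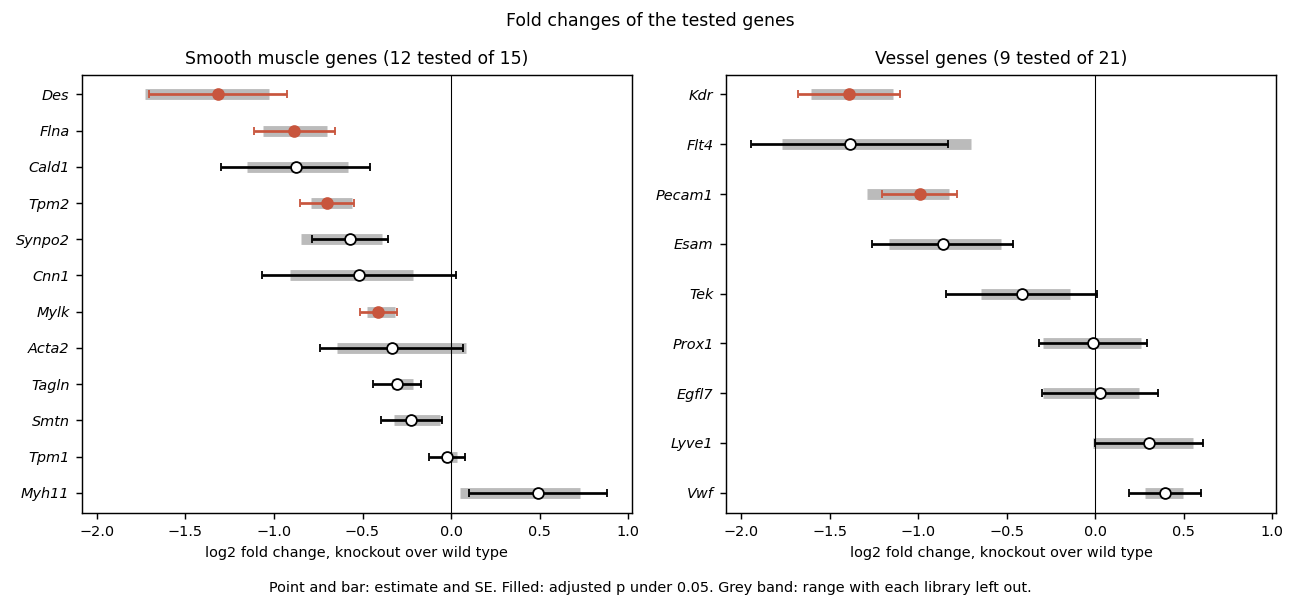
Log2 fold change of knockout over wild type for the 12 tested muscle genes and the 9 tested vessel genes, with the SE as a bar, filled points for adjusted p under 0.05 and a grey band for the range with each library left out in turn. Kdr, Pecam1, Tpm2, Mylk, Flna and Des are filled and their bands lie below 0, whereas the bands of Acta2, Tpm1, Prox1, Egfl7 and Lyve1 cross 0.

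The genes differed in how the wild type libraries spread. In Pecam1, Tagln and Mylk the wild type libraries lay close together and above knockout. In Flna, Kdr, Cald1, Esam, Acta2, Cnn1 and Des, wild type replicates 1 and 2 were high and wild type replicate 3 was the lowest of its group. Flt4 was lowest in wild type replicate 2 and Plvap in wild type replicate 1. Of the genes tested, the knockout libraries were below every wild type library in 5 of 12 muscle and 2 of 9 vessel genes, and above in 0 and 1. Over all genes tested these shares were 16.0% below and 19.7% above.

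Among 30 other genes of contraction, its regulation and the cytoskeleton, some of them typical of muscle, 27 were tested, 2 rose and 0 fell. Over all genes tested 9.43% were higher and 5.97% lower, and the median log2 fold change of the 27 was -0.05. The risen genes were Tpm4 and Fhl2 (0.42, adjusted p = 0.0387), the latter a cofactor of SRF. Fhl2 lost its call without any 1 of the 6 libraries (adjusted p of 0.0574 to 0.111). Tpm4 kept its call when replicate 1 of either genotype was left out and lost it without any other library (adjusted p of up to 0.145). The regulators of contractile genes did not pass: Srf had a log2 fold change of -0.12, its cofactor genes Mrtfa and Mrtfb -0.25 and 0.20, and Myocd, the muscle cofactor, -0.46 from at most 17 counts per library. Ppp1r14a, an inhibitor of myosin phosphatase in smooth muscle, had -1.02 and did not pass (adjusted p = 0.302). The non-muscle myosin gene Myh9 had -0.26 (adjusted p = 0.151).

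Among 36 other genes of vessel growth and identity, 27 were tested, 4 fell and 2 rose, beside 5.97% lower and 9.43% higher over all genes tested. The ligand gene Vegfa, made by epithelial cells among others, fell from 107, 88.5 and 124 CPM to 79.5, 69.3 and 78.5 CPM (log2 fold change -0.49 ± 0.12, adjusted p = 0.0213). No wild type library reached down to the knockout range, and the call was lost without wild type replicate 3, knockout replicate 2 or knockout replicate 3 (adjusted p of up to 0.0892). S1pr1, the receptor for sphingosine 1-phosphate of endothelium and lymphocytes, fell by 1.61 on the log2 scale (adjusted p = 0.00138). The ETS family genes Ets1 and Fli1, expressed in lymphocytes and endothelium, fell by 1.17 (adjusted p = 0.00372) and 1.14 (0.00710). The risen genes were Ephb4, the ephrin receptor of veins that crypt epithelium also makes (0.59, adjusted p = 0.00531), and the neuropilin gene Nrp2 (0.39, adjusted p = 0.0348). Nrp2 kept its call when wild type replicate 3 or knockout replicate 2 was left out and lost it without any other library (adjusted p of up to 0.0933), while S1pr1, Ets1, Fli1 and Ephb4 were called without any 1 library. S1pr1, Ets1 and Fli1 moved in the same libraries as the T cell markers given above, and the part of lymphocytes was not tested.

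Marker lists of neighbouring cells place these genes among the other RNA in the fraction. Beside the calls below stand shares of 5.97% lower and 9.43% higher over all genes tested. The 10 epithelial markers summed to 5555 to 6670 CPM in wild type and 6451 to 7921 CPM in knockout, with 1 of 10 higher (Krt18, not called without knockout replicate 3, adjusted p = 0.0589). Of 12 fibroblast markers 1 fell (Dpt, not called without 5 of the 6 libraries in turn, all but knockout replicate 1, adjusted p of up to 0.103), with a median log2 fold change of -1.27 and summed levels that overlapped. Of 8 pericyte markers, 6 were tested and 0 passed, at 12.8 to 16.7 CPM in wild type and 10.9 to 15.2 CPM in knockout. Higd1b and Abcc9, the 2 that were not tested, were at most at 0.257 CPM, and at 0 in 3 libraries and in 1 library. Over the 6 tested ones the median log2 fold change was -0.47, with 4 of them negative. Pdgfrb had 5.05 to 8.44 CPM over both genotypes, Cspg4 1.01 to 1.73 and Notch3 0.240 to 0.902. Kcnj8 had 1.26 to 2.85 CPM in wild type and 0.960 to 1.44 in knockout (log2 fold change -0.90, edgeR adjusted p = 0.0919). Rgs4 (-0.73, edgeR adjusted p = 0.108) and Mcam (-0.61, 0.126) had all knockout libraries below wild type, as did 16.0% of all genes tested. Of 6 B cell and plasma cell markers 2 fell, Cd79b (not called without knockout replicate 2 or 3) and Mzb1 (not called without wild type replicate 2, knockout replicate 2 or knockout replicate 3), with adjusted p of up to 0.0650 and 0.0800, and of 8 macrophage and 4 haemoglobin genes 0 passed. The haemoglobin genes, a sign of blood, summed to 359 to 605 CPM in wild type and 514 to 1185 CPM in knockout, with overlap. The part of any of these cells in the muscle and vessel values was not tested.

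**Figure D5:**
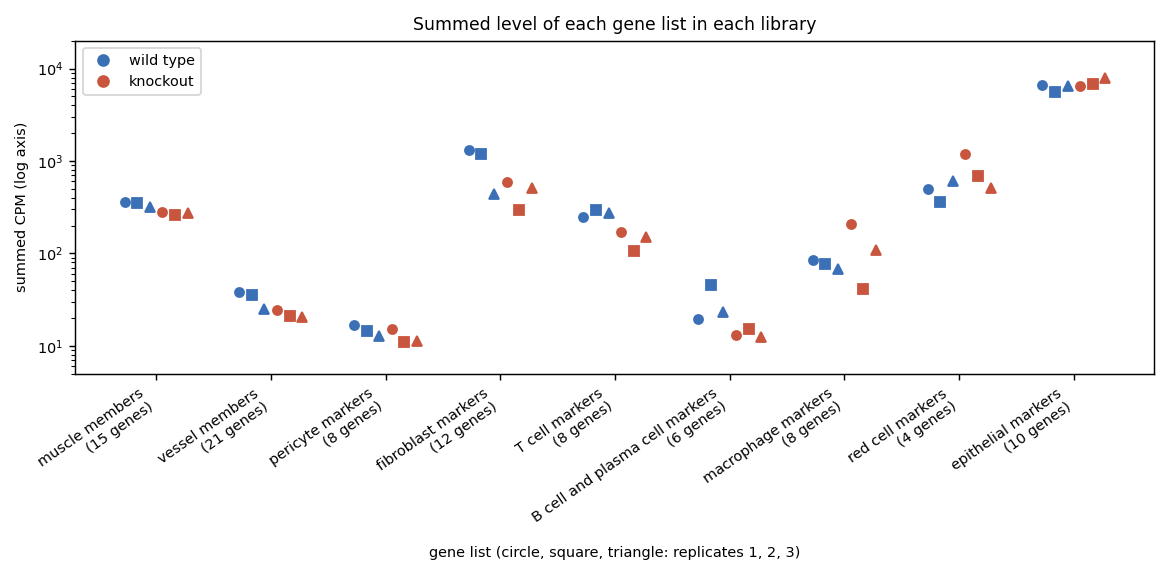
Summed CPM (log axis) of the muscle genes, the vessel genes and 7 marker lists in each library, blue for wild type and red for knockout, with circle, square and triangle for replicates 1, 2 and 3. The muscle, vessel, T cell and B cell lists are lower in all 3 knockout libraries, and the fibroblast list is high in wild type replicates 1 and 2 at 1315 and 1200 CPM.

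The authors' deposited table listed 10 of the 15 muscle and 8 of the 21 vessel genes. Its smallest listed mean was 15.7 normalized counts. On that scale the 18 absent genes had means of up to 14.8, the value of Des. At an adjusted p under 0.05 the authors' deposited table had 3 muscle genes lower (Flna, Tpm2 and Mylk) and 3 vessel genes lower (Pecam1, Kdr and Esam), with 0 higher in either, beside 6.72% of its 15138 genes lower. It gave Esam an adjusted p of 0.0398, where edgeR gave 0.195. Cald1 had an adjusted p of 0.241 in the authors' deposited table and of 0.0298 in DESeq2 as run on the deposited counts, with log2 fold changes of -0.85 and -0.86. The cause of that difference was not tested.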

How the data were processed

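Raw counts by Ensembl gene were deposited in whole numbers. HTSeq summary lines held 53.6 to 60.1% of reads and stayed out of every test. Per the submitters' processing notes, reads were trimmed with Trimmomatic 0.39, and STAR, HTSeq, DESeq2 and GRCm38 were used. No strand setting or annotation release is recorded there. The comparison table deposited by the authors gives DESeq2 log2 fold changes, p-values, a test score and a signal per library, which is the count times 1 factor per library; it was used only descriptively.

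Symbols came from GENCODE M21 (45229 of 46078 identifiers matched) and, for 3 older names, RefSeq synonyms. Genes kept by filterByExpr (minimum count 10, minimum total 15) were scaled with TMM. Genotype was the only term of edgeR's quasi-likelihood test (robust, 2-sided), with Benjamini-Hochberg adjustment over 16856 genes and a threshold of 0.05. SEs were derived from the fold change and F. Versions were edgeR 4.0.16, DESeq2 1.42.0 and limma 3.58.1 under R 4.3.3. In simulated knockout against wild type counts of 16856 genes, 29.9% of 1.5-fold, 67.2% of 2-fold and 90.9% of 4-fold changes were recovered, with 11 false among 136 calls. The changed genes, 67, 67 and 66 in number, were drawn from all levels, so these shares do not give the recovery of genes with low counts. The shift in composition between the genotypes was not simulated. Each pair of libraries differed beyond sampling noise, the lowest chi-square divided by its degrees of freedom being 9.40.

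The members and lists were chosen with earlier results of these data known. All 36 members are described; of the other pathway lists those past the threshold are named, and the transcriptional regulators and Myh9 were named after their values were seen. The alternatives covered scaling (RLE, upper-quartile, library totals), filtering (none, or mean CPM from 1 upward), DESeq2, limma-voom, a replicate block, nuclear protein-coding genes alone, counts thinned to the smallest total and each library left out.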

Additional observations from a re-analysis of the deposited data

How the results depend on the processing

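With library totals alone, 0 muscle genes fell and 1 rose (Tpm1), 1 vessel gene rose (Vwf), and over all genes 420 fell and 5415 rose. With no filter on low counts 4 of 21 vessel genes fell (Pecam1, Kdr, Esam and Flt4), beside 1675 of all 29129 genes (5.75%). Leaving out each library in turn gave 1 to 6 muscle genes and 2 to 3 vessel genes lower, with 0 higher in either list, and 413 to 1070 lower and 711 to 1677 higher over all genes. The remaining alternatives kept these counts within 1.5 times.

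Signs changed in genes with estimates near 0 or of low counts. With library totals alone Tpm1 was at 0.26, Smtn at 0.059 and Prox1 at 0.27 on the log2 scale. Prox1 was at 0.0023 with DESeq2, and Egfl7 at -0.039 with upper-quartile factors and -0.0044 with nuclear protein-coding genes alone. Without single libraries Acta2 ranged from -0.64 to 0.085, Tpm1 from -0.048 to 0.032, Lyve1 from -0.015 to 0.55, Prox1 from -0.30 to 0.26 and Egfl7 from -0.30 to 0.25. For the 21 tested genes, 278 values under alternatives kept sign and call, 16 lost the call, 11 gained it and 17 changed sign.

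Libraries of the same number did not vary together (correlations of deviations -0.01, -0.12 and -0.10 for numbers 1, 2 and 3). Pairs of unlike number had -0.12 to 0.22. With 3 libraries per genotype such correlations cannot exclude a shared preparation. With the replicate block 4 muscle and 2 vessel genes fell, and 868 fell and 1193 rose over all genes; Des lost its call (adjusted p = 0.0525), Synpo2 gained one (0.0267), and Egfl7 was at -0.027. Genes under the floor of 3 counts cannot be compared at this depth, and the knockout libraries are the shallower ones. With counts thinned to the smallest total 3 muscle and 2 vessel genes fell.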

Other observations

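Marker lists of some other cells are given here as values, beside 5.97% lower and 9.43% higher over all genes tested. Of the platelet genes Pf4, Ppbp, Itga2b and Gp9, 2 were tested and 0 passed, at 5.33 to 6.71 CPM summed in wild type and 3.24 to 6.44 CPM in knockout. Of 6 markers of enteroendocrine and tuft cells, which share Prox1 with lymphatic vessels, Neurod1 fell (log2 fold change -0.85) and Trpm5 rose (0.42). Each lost its call without 5 of the 6 libraries in turn, all but knockout replicate 3 (edgeR adjusted p of up to 0.0979 and 0.150). Of the 2 genes listed for the interstitial cells of Cajal, which pace the muscle coat, Kit rose from 47.2 to 55.9 CPM in wild type to 74.5 to 76.5 CPM in knockout (log2 fold change 0.53, edgeR adjusted p = 0.00466). Ano1 did not pass (-0.09). Colon epithelium expresses both genes as well, so the cells that their reads came from cannot be told apart here.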
